A study of Mus musculus with 3 samples.

Results

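The Rab family was followed in hippocampal RNA of grown male mice, comparing those born to older mothers with those born to young ones. Its members were all probes on the array whose gene name is Rab with 1 or 2 digits and at most a letter or a letter and a digit, so that regulators such as Rabgap1 were not counted as members. The rule found 83 probes of 58 gene names among 39429 probes, and 79 probes of 56 genes were kept of 27631 probes that were well above background in Cy3 or in Cy5 on all 3 arrays. The 4 probes left out were second probes of Rab17 and Rab38 and the only probes of Rab25 and Rab44, so 2 genes had no measured value. The array carried 37 Rab genes with 1 kept probe and 19 with 2 or more, and 3 pairs of kept probes (of Rab3c, Rab9 and Rab37) overlapped in sequence. Rab7l1 is the array's name for Rab29 and Rab1 its name for Rab1a.

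The older-mother group held male offspring of females that were 15 to 18 months old (advanced maternal age, AMA), and the control group held male offspring of females of 3 months (young maternal age, YMA). Males of 3 months sired both groups, and all offspring were killed at postnatal day 120. Each sample was a pool of hippocampal total RNA from 3 mice, with 3 pools per group, so differences between single mice cannot be seen. The strain, and whether pooled mice shared a litter, were not given in the sources used here. On each of 3 two-colour arrays (probes of 60 bases) 1 older-mother pool in Cy3 was compared with 1 young-mother pool in Cy5. The dyes had this orientation on every array, so dye and maternal age cannot be told apart. All values below are log2 ratios of the older-mother over the young-mother pool unless stated otherwise. The p-values measure only the spread between these 3 pairs of pools, with each probe's variance drawn towards that of all kept probes.

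Rab proteins are small GTPases that mark the membranes of the cell: each is active with GTP bound, sits on particular compartments through prenyl tails, and there recruits effectors that tether, move or fuse vesicles. Exchange factors load them with GTP, GTPase-activating proteins switch them off, and escort and dissociation factors carry them between membrane and cytosol. In hippocampal neurons Rab3 and Rab27 proteins act in the release of synaptic and dense-core vesicles, Rab5, Rab4 and Rab11 proteins in the uptake and recycling of receptors, and Rab7 in transport to the lysosome.

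The array reads the family through short stretches, and 4 probes that lie in coding sequence are shown because related members resemble each other there and because results on Rab3d and Rab5b below depend on which stretch was read. Sequences and coordinates are those of the array files (build mm9, per the file headers), 5′ to 3′. Capitals mark bases that encode a conserved element of the GTPase fold: the fifth guanine-binding element in Rab8a (chr8:74700227-74700286, plus strand) and Rab10 (chr12:3252628-3252687, minus strand), the end of the switch II region in Rab3d (chr9:21719348-21719407, minus strand) and the start of the last helix in Rab5b (chr10:128116670-128118469, minus strand, a probe that spans an intron).
Rab8a: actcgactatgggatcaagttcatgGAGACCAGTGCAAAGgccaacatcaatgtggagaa
Rab10: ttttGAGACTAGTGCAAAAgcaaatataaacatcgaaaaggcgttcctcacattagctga
Rab3d: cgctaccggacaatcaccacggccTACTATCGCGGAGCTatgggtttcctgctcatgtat
Rab5b: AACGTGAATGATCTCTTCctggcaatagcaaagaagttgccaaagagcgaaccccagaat
Aligned on the shared element, the Rab8a and Rab10 probes overlapped by 39 bases, of which 27 were identical and 12 different. The log2 ratios of these 2 probes were 0.02, -0.01 and 0.09 for Rab8a and 0.11, -0.03 and 0.16 for Rab10 on arrays 1, 2 and 3. Both stayed near 0, and neither passed the test.

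Of the 56 Rab genes, each read by its brightest kept probe, 3 were higher in the older-mother pools (Rab39, Rab31 and Rab40c) and 8 lower (Rab3d, Rab34, Rab24, Rab7l1, Rab18, Rab20, Rab5c and Rab11b), and 45 did not pass. The test was limma over all kept probes, two-sided, with a Benjamini-Hochberg adjusted p under 0.05. The same test called 6.37% of 17700 genes higher and 11.0% lower, 17.4% in all, against 5.36%, 14.3% and 19.6% of the Rab genes. By probe it called 13 of 79 Rab probes (16.5%), 4 higher (5.06%) and 9 lower (11.4%), against 16.6% of all kept probes, 6.96% higher and 9.65% lower. These shares of the Rab family lie near those of all genes. Rab20 entered through the young-mother channel alone, where it was brighter; the filter that asks for signal above background with both dyes leaves it out and again gives 3 higher and 8 lower genes, with Rab5b in its place. With 3 arrays an exact sign-flip test of 1 gene cannot give a two-sided p under 0.25, so single genes were tested only in the limma fit. In whole tissue, fewer cells of a type and less RNA per cell cannot be told apart.

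Differences across the family were small. The median log2 ratio of the 56 Rab genes was -0.04, beside -0.03 over all genes, and on arrays 1, 2 and 3 it was -0.08, -0.01 and -0.04 beside -0.03 on each for all genes. Single genes ran from -0.37 (Rab3d) to 0.50 (Rab39), with 24 means above 0 and 32 below. The median absolute log2 ratio was 0.12 for the Rab genes and 0.11 for all genes, and the median SD over arrays was 0.085 and 0.088. For 36 Rab genes (64.3%, beside 59.0% of all genes) the 3 arrays had the same sign, 13 of them higher and 23 lower. The 95% interval of the mean lay within 0.5 of 0 for 53 genes and within 0.3 of 0 for 39. These intervals cover only the spread between the 3 pairs of pools under loess, with variances drawn in as for the p-values, and not the dye.

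**Figure D1:**
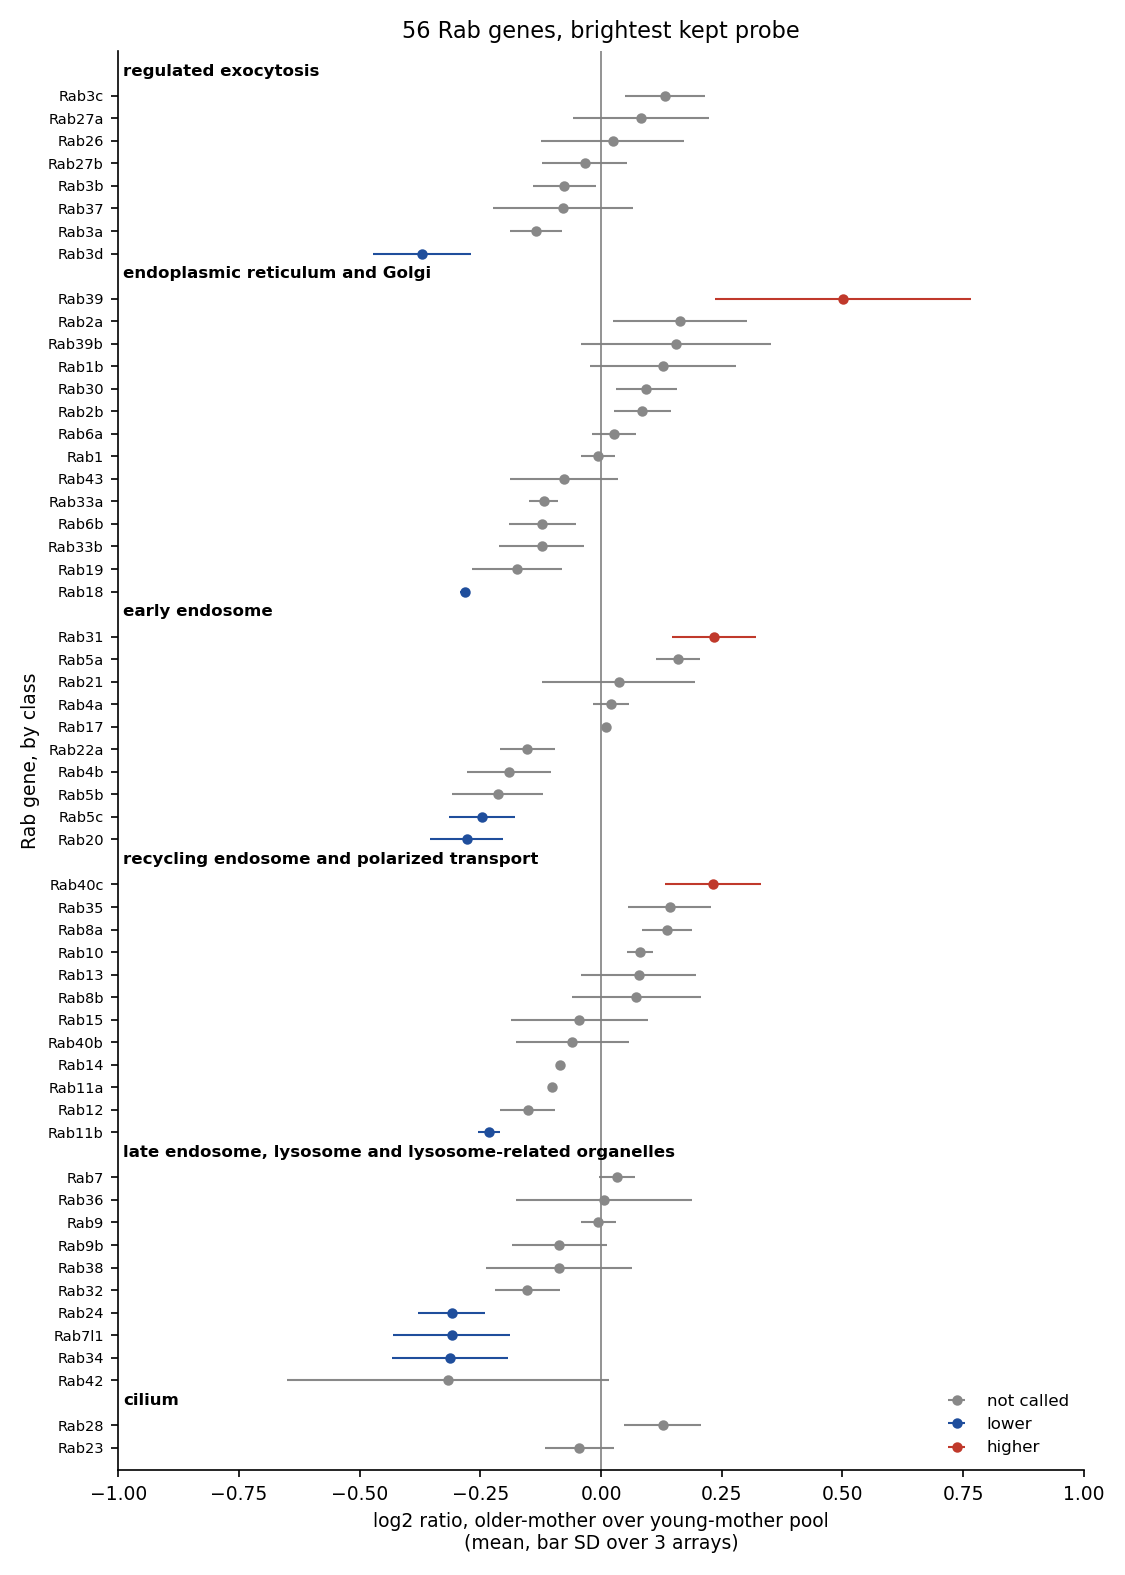
Mean log2 ratio of older-mother over young-mother pools (x axis) for the 56 Rab genes (y axis, grouped by class and sorted within it), with bars of 1 SD over 3 arrays. Red points were higher (3 genes) and blue points lower (8 genes) by limma at an adjusted p under 0.05, and grey points did not pass. Rab31, Rab40c and Rab20 changed sign when each array was centred on its median in place of loess. Relative to the all-gene median of that fit (-0.45) they were at 0.10, -0.02 and 0.78.

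The calls rest on all 3 arrays together. Without array 2, 0 of the 13 called probes passed (limma adjusted p from 0.0677 to 0.192). At an unadjusted p under 0.05 there were 18 of 79 Rab probes, beside 6297 of all 27631 kept probes. Without array 3, 0 passed as well (limma adjusted p from 0.0635 to 0.126), with 26 of 79 at an unadjusted p under 0.05, beside 8129 of all 27631. Over all kept probes 2.91% and 0.293% were called in those fits. Without array 1, 11 of the 13 passed, and Rab40c (limma adjusted p = 0.0972) and Rab11b (0.0519) did not. In each of these fits all 13 probes kept their sign. With Agilent's processed signals 7 of the 13 passed, and with a smaller background offset of 16 in place of 50, 6 passed. Rab3d and Rab18 were among those that passed in both.

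Dye balance moved the signs. When each array was centred on its median in place of the intensity-dependent loess curve, the median of all genes moved to -0.45 and that of the Rab genes to -0.62, and 62 of 79 Rab probes were lower and 6 higher, in a fit that called 63.6% of all kept probes lower and 20.4% higher. Of the 13 called probes, 9 kept their direction and passed. Rab31 turned to -0.36, Rab40c to -0.47, Rab20 to 0.33 and the Rab5b probe at base 1019 to -0.086. Relative to the median of all genes in that fit, these 4 stood at 0.10, -0.02, 0.78 and 0.36.

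Rabs of regulated exocytosis bring synaptic vesicles, dense-core vesicles and secretory granules to the plasma membrane. They numbered 8: 1 was lower, 0 were higher and 7 did not pass (median -0.05), beside 11.0% lower and 6.37% higher of all genes. Rab3d, which sits on secretory granules, had log2 ratios of -0.30, -0.49 and -0.33 on arrays 1, 2 and 3. All arrays were below 0 and array 2 was lowest. Its mean was -0.37, a 1.29-fold fall (SD 0.10, n = 3, limma adjusted p = 0.0210). The probe lies at chr9:21713734-21713793 on the minus strand. Rab3a, the main Rab of synaptic vesicles, was at -0.18, -0.08 and -0.15, below 0 on each array, with a mean of -0.13 that did not pass (SD 0.05, n = 3, limma adjusted p = 0.106, 95% interval -0.25 to -0.01). It passed with a variance trend and robust fitting (limma adjusted p = 0.0358). It also passed with median centring, but that fit called 63.6% of all kept probes lower. In the remaining fits Rab3a did not pass, with a mean as weak as -0.026 and a limma adjusted p of up to 0.758. At its brightest kept probe Rab27b, of dense-core vesicles, was at -0.14, 0.02 and 0.02, so array 1 alone was below 0. The mean of -0.03 (SD 0.09, n = 3, limma adjusted p = 0.680) turned to 0.02 without array 1 and to 0.03 with Agilent's processed signals. The second kept Rab27b probe, nearly as bright, was at -0.28, -0.10 and -0.05. It was below 0 on all arrays and did not pass (mean -0.14, limma adjusted p = 0.158). By their brightest kept probes the other Rab3 and Rab27 genes and Rab26 and Rab37 lay between -0.08 and 0.13. A further kept probe of Rab3c (-0.31) and the second of Rab3d (-0.02) gave unlike values, which are described below.

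Among the 14 Rabs of the endoplasmic reticulum and Golgi, 1 was higher, 1 was lower and 12 did not pass (median 0.01). The shares of all genes were 6.37% higher and 11.0% lower. Rab39 (Rab39a), linked to Golgi and autophagy traffic, was at 0.20, 0.61 and 0.69. All arrays were above 0, array 1 far less so than the other arrays. The mean of 0.50, a 1.42-fold rise, was the largest of the family (SD 0.27, n = 3, limma adjusted p = 0.0332), and it was 0.69 with median centring. With Agilent's processed signals it was 1.13 and did not pass (limma adjusted p = 0.0538). Rab39b, its close relative, was at -0.07, 0.22 and 0.31, also with array 1 lowest, and did not pass (mean 0.15, SD 0.20, n = 3, limma adjusted p = 0.221). Rab18, which acts on the endoplasmic reticulum and lipid droplets, was at -0.29, -0.28 and -0.27. The arrays hardly differed, and the mean of -0.28 was a 1.22-fold fall (SD 0.01, n = 3, limma adjusted p = 0.0215). Rab1, Rab1b, Rab2a, Rab2b, Rab6a and Rab6b, which carry traffic between endoplasmic reticulum and Golgi and within the Golgi, lay between -0.12 and 0.16, and none of these 6 passed by limma. Rab30, Rab33a, Rab33b and Rab43 lay between -0.12 and 0.09 and did not pass either. Rab19 was not well above background in the older-mother pools on any array. By its measured signals it was 1.13-fold lower there, a difference that did not pass (limma adjusted p = 0.0813).

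Early endosome Rabs receive cargo after uptake from the cell surface. They numbered 10: 1 was higher, 2 were lower and 7 did not pass (median -0.07), beside 6.37% higher and 11.0% lower of all genes. Of the 2 lower genes, Rab20 was kept through the young-mother channel alone. The 3 Rab5 genes encode closely related proteins that drive fusion of early endosomes, and their values were not alike. Rab5c was at -0.17, -0.28 and -0.29, below 0 on all arrays, with a mean of -0.25, a 1.19-fold fall (SD 0.07, n = 3, limma adjusted p = 0.0333). Rab5a was at 0.11, 0.17 and 0.20, above 0 on all arrays, with a mean of 0.16 that did not pass (SD 0.05, n = 3, limma adjusted p = 0.0696) and turned to -0.52 with median centring. Treating the 2 channels as separate samples, with no pairing by array, put Rab5a past the threshold (limma adjusted p = 0.0485). A variance trend with robust fitting did so too (0.0360), while in other fits its limma adjusted p was up to 0.310. The brightest Rab5b probe was at -0.27, -0.26 and -0.10 and did not pass (mean -0.21, SD 0.10, n = 3, limma adjusted p = 0.0530). It passed with separate channels (limma adjusted p = 0.0281), mean signals (0.0414), the stricter filter (0.0499) and a variance trend with robust fitting (0.0248). It also passed with median centring, but that fit called 63.6% of all kept probes lower. In the remaining fits this brightest Rab5b probe did not pass (limma adjusted p up to 0.242). The differences between the Rab5 genes were not tested.

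Rab31, which moves cargo between the trans-Golgi network and endosomes, was at 0.16, 0.22 and 0.33. All arrays were above 0 and array 3 was highest, with a mean of 0.23, a 1.18-fold rise by loess (SD 0.09, n = 3, limma adjusted p = 0.0417) that was -0.36 with median centring. Rab20, of endosome and phagosome maturation, was at -0.26, -0.22 and -0.36, but it was not well above background in the older-mother pools on any array. By its measured signals it was 1.21-fold lower there (limma adjusted p = 0.0278, 95% interval of the log2 ratio -0.41 to -0.15). A bound would set the Cy5 signal against a Cy3 floor, the lowest Cy3 signal among probes above background. The measured Cy3 signal was not below this floor on any array, so no bound beyond the measured ratio was gained. With median centring the sign of Rab20 turned, and the filter that asks for both channels above background on all arrays left it out. Rab4a, Rab4b, Rab17, Rab21 and Rab22a lay between -0.19 and 0.04 and did not pass.

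In the array's coordinates (mm9) the probe of Rab39 lies at chr9:53492468-53492527, that of Rab5c at chr11:100576581-100576640 and that of Rab11b at chr17:33883689-33883748, all on the minus strand. Those of Rab31 (chr17:66001515-66001574) and Rab40c (chr17:26019159-26019218) lie on the minus strand too, and those of Rab34 (chr11:78005615-78005674) and Rab7l1 (chr1:133769401-133769460) on the plus strand. Each lies in its gene's transcript per the array files, and exon, intron and UTR annotations of this build were not used here.

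**Figure D2:**
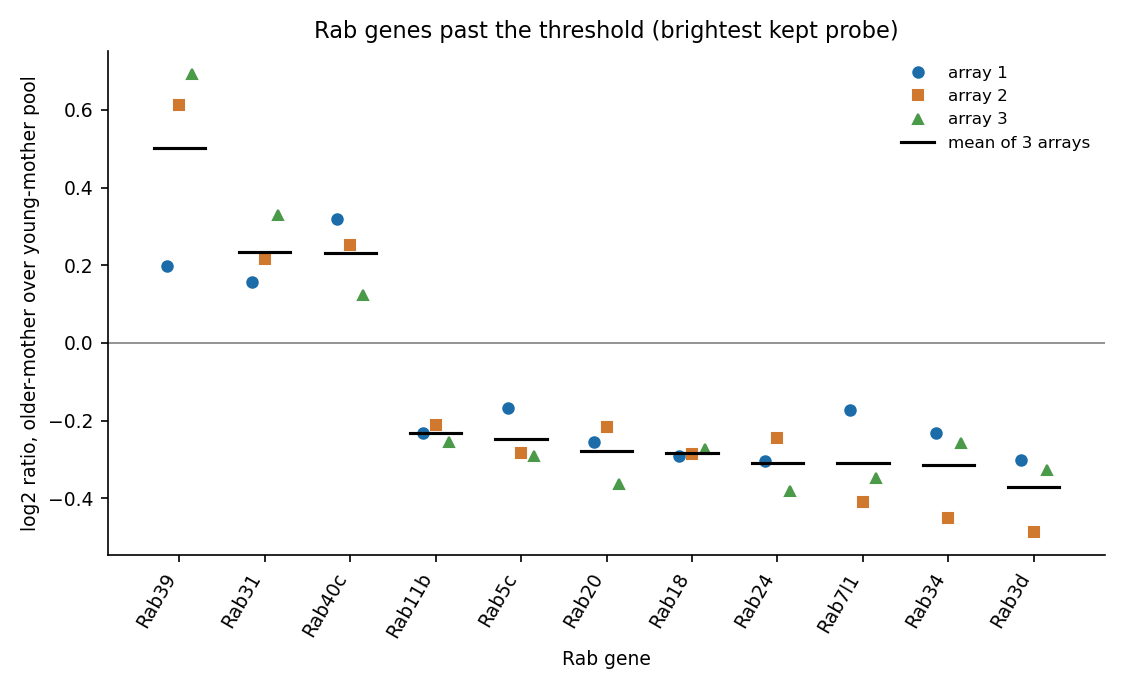
Log2 ratio of the older-mother over the young-mother pool (y axis) on arrays 1, 2 and 3 (markers) for the 11 Rab genes past the threshold (x axis), with the mean of 3 arrays as a bar. Every point shares the sign of its gene's mean. Rab39 varies most, from 0.20 to 0.69, and Rab18 and Rab11b vary least. Rab31, Rab40c and Rab20 changed sign with median centring in place of loess. Relative to the all-gene median of that fit (-0.45) they were at 0.10, -0.02 and 0.78.

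Recycling and polarized transport Rabs return receptors to the surface and carry newly made membrane to axon, dendrite or cilium. They numbered 12: 1 was higher, 1 was lower and 10 did not pass (median 0.01), beside 6.37% higher and 11.0% lower of all genes. Rab11b, a recycling endosome Rab abundant in brain, was at -0.23, -0.21 and -0.26. The arrays lay close together, with a mean of -0.23, a 1.18-fold fall (SD 0.02, n = 3, limma adjusted p = 0.0303). Its relative Rab11a was at -0.11, -0.10 and -0.10, also below 0 on all arrays. Its mean of -0.10 did not pass (SD 0.0037, n = 3, limma adjusted p = 0.156, 95% interval -0.21 to 0.01). The interval is wide beside this SD because limma draws each variance towards that of all kept probes. Rab40c, an unusual Rab that forms part of a ubiquitin ligase, was at 0.32, 0.25 and 0.12. Array 1 was highest, and the mean of 0.23, a 1.17-fold rise by loess (SD 0.10, n = 3, limma adjusted p = 0.0468), was -0.47 with median centring. Rab8a and Rab10, which carry vesicles to the plasma membrane, were above 0 on all arrays, Rab8a at 0.19, 0.12 and 0.09 and Rab10 at 0.10, 0.09 and 0.05. Neither passed (means 0.14 and 0.08, limma adjusted p = 0.102 and 0.245). With median centring they were -0.33 and -0.61, which is 0.12 and -0.16 relative to the all-gene median of that fit. Rab8b, Rab12, Rab13, Rab14, Rab15, Rab35 and Rab40b lay between -0.15 and 0.14 and did not pass.

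Late endosome, lysosome and lysosome-related organelle Rabs numbered 10, of which 3 were lower, 0 higher and 7 did not pass, beside 11.0% lower and 6.37% higher of all genes. With Agilent's processed signals 0 of the 10 were lower, with an offset of 16 only 1 and with median centring all 10. In those fits 5.25%, 6.26% and 63.6% of all kept probes were lower. The class median was -0.12, and -0.61 with median centring. Rab24, found on autophagosomes, was at -0.30, -0.24 and -0.38. All arrays were below 0, with a mean of -0.31, a 1.24-fold fall (SD 0.07, n = 3, limma adjusted p = 0.0222), and its probe lies at chr13:55421675-55421734 on the minus strand. Rab34, which positions lysosomes and is needed for cilium formation, was at -0.23, -0.45 and -0.26, lowest on array 2, with a mean of -0.31 (SD 0.12, n = 3, limma adjusted p = 0.0304). Rab7l1 (Rab29), a partner of the Parkinson's disease kinase LRRK2 at Golgi and lysosome, was at -0.17, -0.41 and -0.35. Array 2 was again lowest, and the mean was -0.31 (SD 0.12, n = 3, limma adjusted p = 0.0312). The second Rab7l1 probe had the same sign on all arrays, at -0.11, -0.32 and -0.07, and did not pass (mean -0.17, limma adjusted p = 0.127).

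Rab7, the Rab that defines late endosomes, was at 0.04, 0.07 and -0.01, on both sides of 0. Its mean was 0.03 (SD 0.04, n = 3, limma adjusted p = 0.629, 95% interval -0.08 to 0.15), and it was -0.53 with median centring, 0.08 under the all-gene median of that fit. Rab42 was at -0.70, -0.13 and -0.12, so its mean of -0.32 came largely from array 1 and did not pass (SD 0.33, n = 3, limma adjusted p = 0.127). Rab9, Rab9b, Rab32, Rab36 and Rab38 lay between -0.15 and 0.01 and did not pass. The 2 Rabs linked to the cilium, Rab23 and Rab28, were at -0.04 and 0.13, and neither passed by limma (adjusted p = 0.553 and 0.139).

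Many lysosomal and autophagy genes carry a CLEAR element, a palindrome to which the transcription factor TFEB and its relatives bind. In RefSeq's promoter windows (GRCm38.p6, 250 bases before to 50 after each start, 300 in all) 60 windows belonged to 48 of the Rab genes. The element, searched on both strands, was found in 3 of these 60 and in 0.326% of all 32851 windows. These 3 promoters are shown because they belong to members with unlike values: Rab24 was lower (-0.31), while Rab5a (0.16, but -0.52 with median centring) and Rab21 (0.04) did not pass. Capitals mark the element and spell it out. It begins 97 bases before the start in Rab5a (chr17:53478984-53479233, plus strand), 32 bases before it in Rab21 (chr10:115315592-115315841, minus strand) and on the first transcribed base, after the 250 bases of promoter, in Rab24 (chr13:55321971-55322230, minus strand).
Rab24: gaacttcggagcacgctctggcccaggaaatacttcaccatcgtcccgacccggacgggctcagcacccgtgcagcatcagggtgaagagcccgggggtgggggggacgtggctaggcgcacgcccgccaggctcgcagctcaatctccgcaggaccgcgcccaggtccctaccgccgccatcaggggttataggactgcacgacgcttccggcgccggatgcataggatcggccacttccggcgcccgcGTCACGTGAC
Rab5a: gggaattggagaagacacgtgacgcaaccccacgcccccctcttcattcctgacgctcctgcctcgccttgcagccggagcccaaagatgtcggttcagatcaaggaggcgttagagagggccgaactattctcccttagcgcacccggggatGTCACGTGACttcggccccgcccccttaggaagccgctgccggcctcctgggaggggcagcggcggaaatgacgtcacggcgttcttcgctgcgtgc
Rab21: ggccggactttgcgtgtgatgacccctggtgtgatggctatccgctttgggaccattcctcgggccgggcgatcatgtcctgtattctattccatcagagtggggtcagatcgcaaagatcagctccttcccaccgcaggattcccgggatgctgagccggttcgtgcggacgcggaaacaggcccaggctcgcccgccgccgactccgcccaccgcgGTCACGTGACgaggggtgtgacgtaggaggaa
Other elements searched in the same windows were the cAMP response element TGACGTCA, found in 3.33% of the Rab windows (Rab5a and Rab25) and 1.79% of all, the AP-1 site TGANTCA in 3 of 60 (Rab34, Rab15 and Rab39b) and 7.81% of all, and the heat shock element in 0 of 60 and 0.603% of all. Each was searched on both strands, and none of the 4 contains another. A match is only a match of letters.

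Some Rab genes gave different values at different places of 1 transcript. A difference between the kept probe nearest the 3′ end (distal) and the one nearest the 5′ end (proximal) was formed on each array for the 16 Rab transcripts with kept probes at least 60 bases apart, and it was tested in limma over all 3595 such transcripts. This comparison was chosen after the data were seen. In Rab3c, Rab3d and Rab5b the distal probe was lower relative to the proximal one, and in 0 of 16 it was higher. At an unadjusted p under 0.05 there were 4 of 16, and the share over all transcripts at that p was not counted. Over all transcripts 8.15% were lower and 5.56% higher at the distal probe. The median difference was 0.0044 over the Rab transcripts and -0.017 over all.

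In Rab3c, the probe that starts at base 8381 of the transcript (chr13:110844454-110844513, minus strand) had ratios of -0.38, -0.25 and -0.31. It passed as lower on its own (mean -0.31, SD 0.06, n = 3, limma adjusted p = 0.0215). The probes at bases 2311 and 2305, which overlap, were at 0.22, 0.13 and 0.05 and at 0.19, 0.16 and 0.09, above 0 on all arrays by loess, and their means of 0.13 and 0.14 did not pass (limma adjusted p = 0.133 and 0.0911) and were -0.67 and -0.63 with median centring. The distal minus proximal difference over 6076 bases was -0.57, -0.41 and -0.40, with a mean of -0.46 (SD 0.09, n = 3, limma adjusted p = 0.0220). So the value for Rab3c depends on whether the probe at base 8381 or those at bases 2311 and 2305 are read. Whether place in the transcript or the probe itself made the difference was not tested.

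Rab3d had the same direction: the coding probe printed above, at base 480, was at -0.02, 0.01 and -0.06, near 0 on each array, and the probe at base 2028 carried the fall. The distal minus proximal difference was -0.28, -0.50 and -0.26 (mean -0.35, SD 0.13, n = 3, limma adjusted p = 0.0361). Rab5b had 4 kept probes. The printed one at base 685 was at 0.11, 0.06 and 0.05, and the one at base 1019 was at 0.17, 0.20 and 0.32 and passed as higher by loess (mean 0.23, SD 0.08, n = 3, limma adjusted p = 0.0399), but was -0.086 with median centring. The probe at base 1821 was at 0.06, -0.23 and -0.23, and the brightest, at base 3103, at -0.27, -0.26 and -0.10. From the probe at base 685 to that at base 3103 the difference was -0.38, -0.33 and -0.16 (mean -0.29, SD 0.12, n = 3, limma adjusted p = 0.0466). Rab8b went the other way between bases 3306 and 4598, by 0.28, and did not pass (limma adjusted p = 0.0840). Its probe at base 3306 was well above background in Cy3 on only 1 array.

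These 3 differences were lost in several fits. With Agilent's processed signals 0 of 16 Rab transcripts passed, with an offset of 16 only 1, without array 1 only 1, without array 2 none, and without array 3 all 3 passed. With median centring 9 were lower and 2 higher at the distal probe. The shares of all transcripts in these fits were not counted. The probes of a pair differed in brightness: the mean log2 intensity at the proximal and distal probe was 13.59 and 13.28 in Rab3c, 7.42 and 8.08 in Rab3d, and 7.28 and 11.89 in Rab5b. The part of brightness and dye in the differences was not tested.

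**Figure D3:**
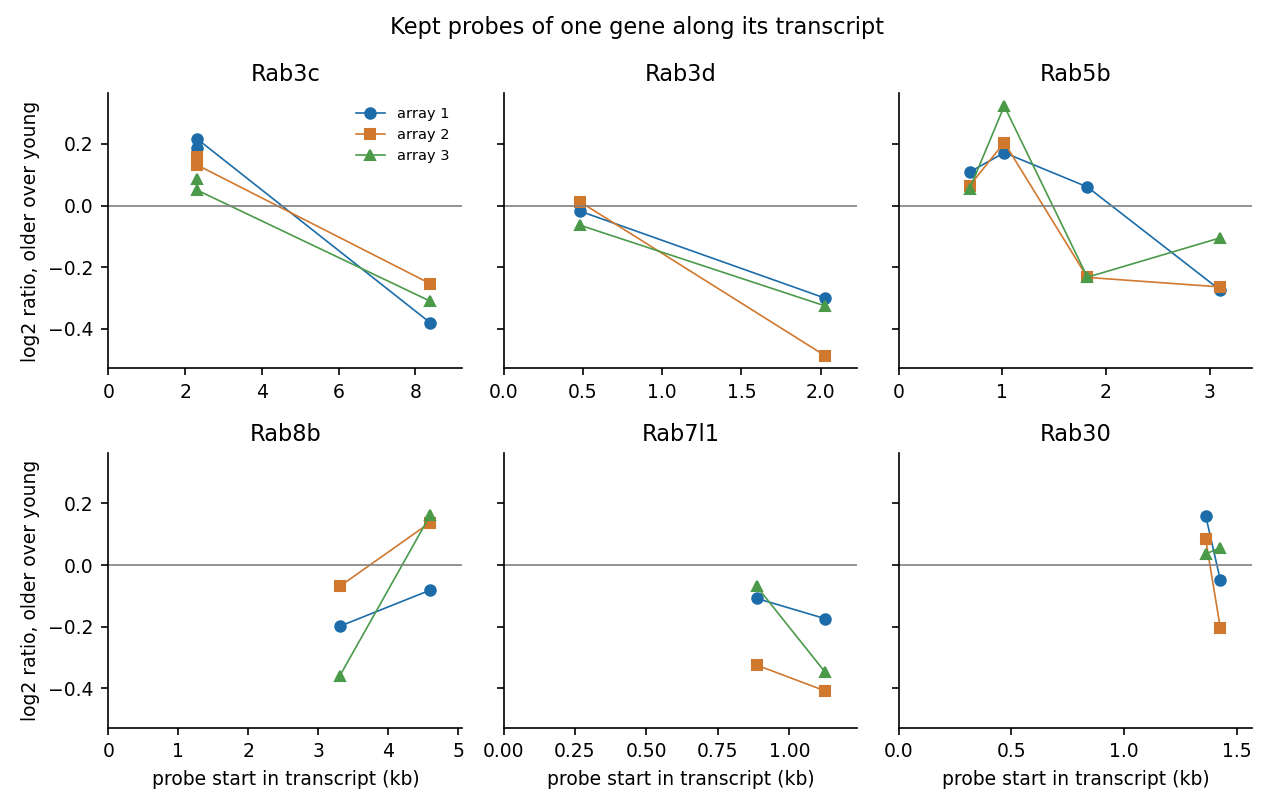
Log2 ratio of older-mother over young-mother pools (y axis) on arrays 1, 2 and 3 (lines) at each kept probe, against the probe's start in the transcript (x axis, in kilobases), for Rab3c, Rab3d, Rab5b, Rab8b, Rab7l1 and Rab30. In Rab3c, Rab3d and Rab5b the probe nearest the 3′ end was lower than the one nearest the 5′ end on all 3 arrays and the difference passed by limma; in the other panels it did not pass. With median centring in place of loess the upper Rab3c probes and the Rab5b probe at base 1019 lay below 0. Relative to the all-gene median of that fit (-0.45) they were at -0.22, -0.18 and 0.36.

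Proteins that act on Rabs were taken from lists of known regulators. Of 32 measured exchange factors (of 35 listed) 1 was higher, 7 were lower and 24 did not pass; 25.0% passed, beside 17.4% of all genes, and the median was 0.00. Agilent's processed signals gave 3 lower, beside 5.25% of all kept probes. With median centring 24 were lower and 4 higher, beside 63.6% and 20.4% of all kept probes. Rin2, an exchange factor of the Rab5 group, was at 0.69, 0.71 and 0.62, high on all arrays. Its mean of 0.68, a 1.60-fold rise (SD 0.05, n = 3, limma adjusted p = 0.0118), passed without each array in turn (limma adjusted p from 0.0108 to 0.0463). With median centring it was 0.10 and did not pass (0.136), which is 0.55 above the all-gene median of that fit. Madd, the exchange factor of Rab3 and Rab27 proteins at the synapse, was at -0.35, -0.38 and -0.49, with a mean of -0.41 (SD 0.08, n = 3, limma adjusted p = 0.0169). Dennd4a, an exchange factor for Rab10, was at -0.40, -0.41 and -0.47, with a mean of -0.43 (SD 0.04, n = 3, limma adjusted p = 0.0146). Both were low on all arrays and passed without array 1 and without array 2, but not without array 3 (0.0566 and 0.0527).

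Dennd1c, an exchange factor for Rab35, was not well above background in the older-mother pools. By its measured signals it was 1.27-fold lower there (limma adjusted p = 0.0184), with a sign that turned under median centring (0.11). Like Rab20 it was kept through the young-mother channel alone, as was Dennd2d, so 5 of the 7 lower calls rest on signal with both dyes. The other 4 that were lower, named after their values were seen, were Dennd6b (-0.27), Rin1 (-0.26), Ccz1 (-0.24) and Dennd2d. Ccz1 is a subunit of the Rab7 exchange factor. Dennd2d was not well above background in Cy3 and was 1.16-fold lower by its measured signals, but at 0.34 with median centring. Dennd1c and these 4 did not pass without array 2 or without array 3 (limma adjusted p from 0.0589 to 0.225), nor Rin1 without array 1 (0.0582).

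Among 34 GTPase-activating proteins 1 was higher and 3 were lower (11.8%, beside 17.4% of all genes, median -0.03). Tbc1d2b, which acts on Rab22a, was at -0.38, -0.23 and -0.33 (mean -0.31, SD 0.07, n = 3, limma adjusted p = 0.0222), Tbc1d10c at -0.27, -0.26 and -0.36 (mean -0.30, adjusted p = 0.0223) and Tbc1d30 at -0.30, -0.17 and -0.28 (mean -0.25, adjusted p = 0.0339), all below 0 on each array. Rabgap1, which acts on Rab6, was at 0.24, 0.24 and 0.18 (mean 0.22, limma adjusted p = 0.0347) and at -0.012 with median centring, 0.44 above the all-gene median of that fit. Agilent's processed signals gave 0 higher in this list and put Tbc1d10c at -0.88. None of these 4 passed without array 2 (limma adjusted p from 0.0622 to 0.181) or without array 3 (0.0725 to 0.104), and Tbc1d30 and Rabgap1 did not without array 1 either (0.0666 and 0.0650).

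Factors that prenylate and carry Rabs held 2 of 8 members that were higher, 0 lower (25.0%, beside 17.4% of all genes, median 0.01). Rabggtb, the catalytic subunit of the geranylgeranyl transferase that attaches the prenyl tails, was at 0.22, 0.28 and 0.20 (mean 0.23, SD 0.04, n = 3, limma adjusted p = 0.0333). Rabac1, a membrane receptor for prenylated Rabs, was at 0.19, 0.18 and 0.17 (mean 0.18, SD 0.01, n = 3, limma adjusted p = 0.0473). Both lay above 0 on all arrays by loess but at -0.36 and -0.60 with median centring, which is 0.09 and -0.15 relative to the all-gene median of that fit. None of this list was higher with Agilent's processed signals, and neither passed without any 1 array (limma adjusted p from 0.0536 to 0.234). The escort proteins Chm and Chml, at 0.05 and -0.04, did not pass; Chm was -0.48 with median centring, -0.03 relative to the all-gene median of that fit.

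Among effectors, which bind the active Rab, 1 was higher and 1 lower of 42 measured of 44 listed (median -0.01). These were 4.76% of those measured, beside 17.4% of all genes. With mean signals 2 were higher and 4 lower, beside 7.92% and 10.7% of all kept probes. With Agilent's processed signals 0 were lower, beside 5.25%. Sytl2, an effector of Rab27 at the plasma membrane, was at -0.14, -0.52 and -0.43 (mean -0.36, SD 0.20, n = 3, limma adjusted p = 0.0405), weakest on array 1. It did not pass without array 2 (0.139) or array 3 (0.122). Mical3, an effector of Rab8, was at 0.15, 0.22 and 0.32 (mean 0.23, limma adjusted p = 0.0433) and at -0.31 with median centring (0.14 above the all-gene median of that fit), and it did not pass without array 2 (0.167) or array 3 (0.132). The Rab27 effectors Unc13d and Sytl4 were at -0.18 and -0.23 and did not pass (limma adjusted p = 0.0525 and 0.0577), Sytl4 at 0.016 with median centring, 0.47 above the all-gene median of that fit. Of the 2 kinases that phosphorylate Rabs, Lrrk1, whose substrate is Rab7, was lower at -0.20, -0.24 and -0.25 (mean -0.23, SD 0.02, n = 3, limma adjusted p = 0.0310, 0.163 without array 2 and 0.0946 without array 3). It did not pass with Agilent's processed signals. Lrrk2, whose substrates include Rab8a, Rab10 and Rab29, was at -0.14, -0.10 and -0.03 and did not pass (mean -0.09, limma adjusted p = 0.227).

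**Figure D4:**
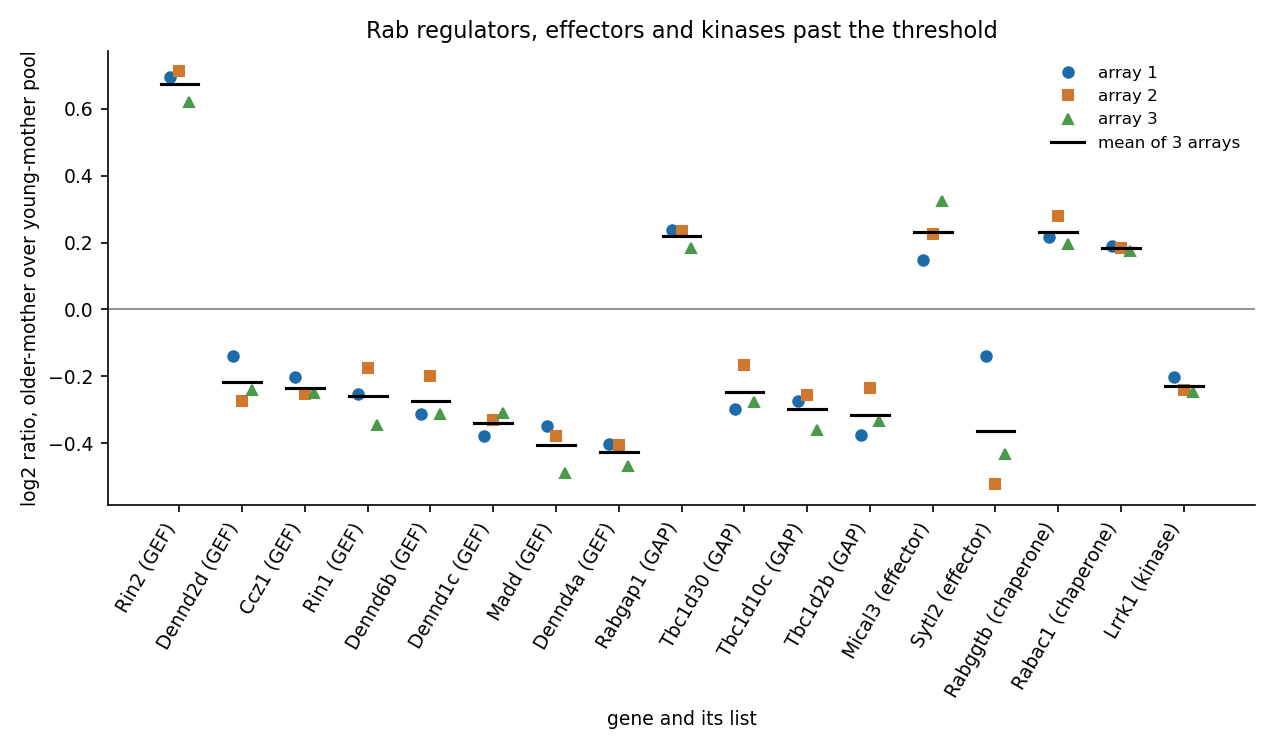
Log2 ratio of older-mother over young-mother pools (y axis) on arrays 1, 2 and 3 (markers) with their mean (bar) for the Rab exchange factors (GEF), GTPase-activating proteins (GAP), effectors, chaperone and prenylation factors and kinases past the threshold by limma (x axis). Rin2 lies between 0.62 and 0.71 and the 7 lower exchange factors lie below 0 on all arrays; Rabgap1, Mical3, Rabggtb, Rabac1, Dennd1c and Dennd2d changed sign with median centring in place of loess, which moved the median of all genes to -0.45; relative to it they were at 0.44, 0.14, 0.09, -0.15, 0.56 and 0.79.

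All 8 markers of hippocampal pyramidal and granule neurons were well above background in both channels, with a median log2 ratio of -0.05 (1 higher, 2 lower), but so were the markers of choroid plexus, leptomeninges, endothelium, microglia and oligodendrocytes listed here, so detection alone does not tell the labelled tissue from its neighbours. Markers of tissue next to the hippocampus differed between the pools. By the same test 6.37% of all genes were higher and 11.0% lower. The 9 choroid plexus markers had a median of -1.15, at -0.87, -2.14 and -0.41 on arrays 1, 2 and 3 (2 lower, 0 higher), and the 7 leptomeningeal markers a median of -0.40, at -0.39, -0.51 and -0.27 (6 lower, 0 higher). Both lists were lowest on array 2, as were Rab3d, Rab34 and Rab7l1. Of the other lower Rab genes, Rab24, Rab20, Rab5c and Rab11b were lowest on array 3, and Rab18 was nearly level. The part of plexus and meningeal RNA in these Rab values was not tested. Markers of endothelium (1 higher, 3 lower of 6), astrocytes (1 higher of 6), microglia (1 higher, 1 lower of 6), oligodendrocytes (1 higher of 8), GABAergic neurons (1 lower of 7) and blood (2 higher, 1 lower of 5 measured of 6) had medians between -0.14 and 0.05.

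**Figure D5:**
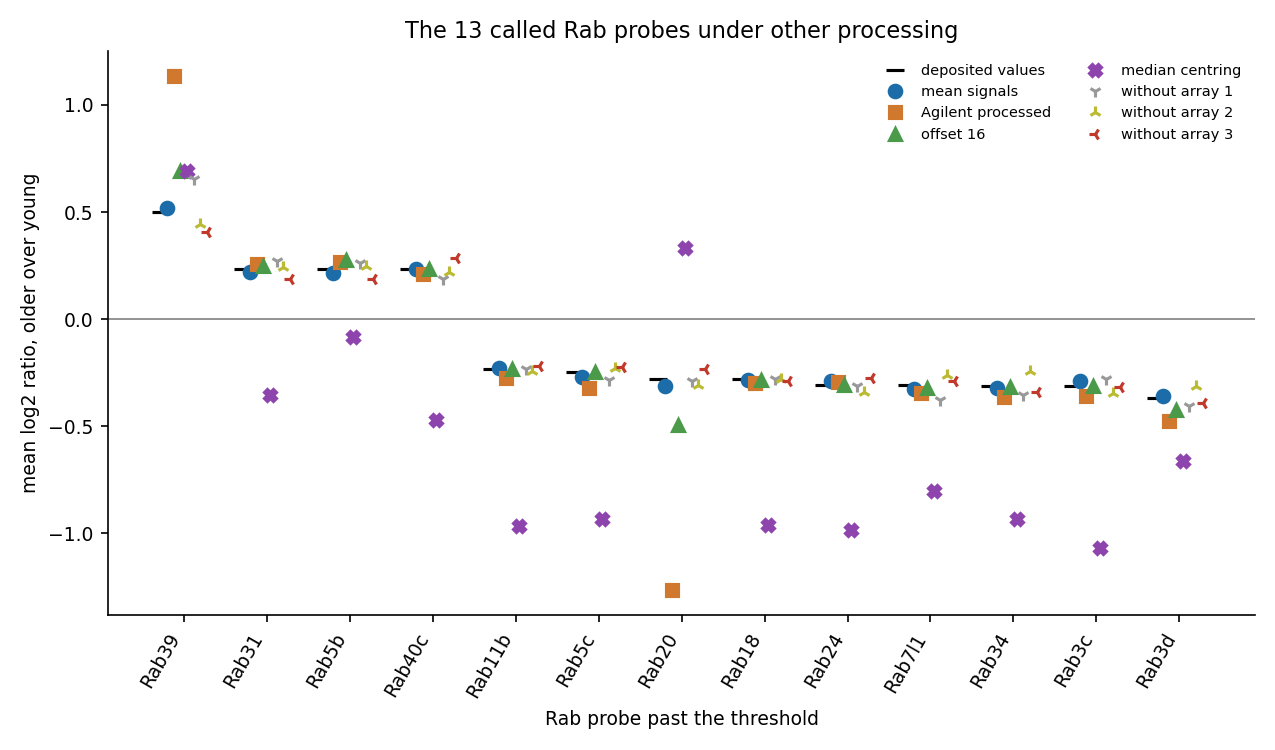
Mean log2 ratio (y axis) of the 13 called Rab probes (x axis) with the deposited values (bar), mean signals, Agilent's processed signals, an offset of 16, median centring in place of loess, and without each array in turn (markers). The mean of each probe keeps its sign in all of these except median centring, which turns Rab31, the Rab5b probe, Rab40c and Rab20. Relative to the all-gene median of that fit (-0.45) these were at 0.10, 0.36, -0.02 and 0.78. Rab39 and Rab20 moved most with Agilent's processed signals, to 1.13 and -1.26.

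Depth on arrays is the height of the signal over background. On arrays 1, 2 and 3, the signals over background had medians, in intensity units, of 58.5, 57.0 and 62.0 in Cy3 and 151.5, 150.5 and 162.5 in Cy5, with 0 saturated spots among 44397 per array. Of the 79 kept Rab probes 74 exceeded background with both dyes on every array. The log2 ratios of 2 arrays correlated at 0.490 to 0.687 over all kept probes, a value across genes of arrays that share dye orientation. With 3 arrays, the precision of each ratio is limited by their number.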

How the data were processed

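Total RNA of 3 older-mother and 3 young-mother pools was compared on 3 two-colour Agilent arrays (design 026655, build mm9, per the file headers). Values in the deposited table are log2 of Cy3 over Cy5. How the authors made them is not given in the sources used here, but normexp with offset 50 and loess with span 0.3 of the median spot signals gave the same values to within 5.0e-10, which also fixes scale and direction. The medians of the deposited columns were -0.0054, -0.0051 and -0.0056. Scanner files were made with Feature Extraction 10.10.1.1, per the file headers. Their spot, background and processed signals are intensity values, processed ones corrected for background and dye per the file headers. Their log ratio column is log10 of Cy5 over Cy3, per the file headers. With its sign turned and on the log2 scale, it was fitted as the alternative called Agilent's processed signals. Deposited flags (other values, 0 or 1) mark spots above background.

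Spots of a probe were averaged (399 probes had 10 spots), without control and outlier spots. Probes well above background in Cy3 or in Cy5 on all 3 arrays were kept. The mean ratio was tested in limma 3.58.1 (R 4.3.3; lmFit with an intercept, eBayes, two-sided, 2 residual and 3.61 prior degrees of freedom) with Benjamini-Hochberg adjustment over 27631 probes. A gene was read by its brightest kept probe. The offset pulls ratios of dim probes towards 0. Differences between probes of a transcript were fitted in the same way. The procedure was tested on simulated data.

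Named are Rab genes that passed, Rab3a, Rab5a, Rab7, Rab8a, Rab10, Rab11a, Rab27b and Rab7l1 whatever their values, genes whose probes differ in sign with 1 past the threshold, and up to 4 regulators of each list with the smallest p; Rab39b, Rab42 and the others were chosen after their values were seen. Members and lists were chosen with earlier results of these data known. Of 83 Rab probes 79 matched RefSeq by accession (28025 of all probes). The 2 pools of an array are paired through the ratio. The arrays share a scan time per the file headers, so no batch term was possible. Alternatives changed the signal (mean or processed), the dye balance (median centring), the offset (16), the background filter (none, or both channels), the variance (trend and robust), the pairing (channels apart), the threshold, the probe of a gene (mean of all) or the arrays (each left out).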

Additional observations from a re-analysis of the deposited data

How the results depend on the processing

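Rab counts stayed within 1.5 times of 4 higher and 9 lower probes and of 3 higher and 8 lower genes with mean signals, no filter, the stricter filter and a variance trend with robust fitting. With Agilent's processed signals 2 probes and 1 gene were higher and 5 genes lower, beside 4.23% of all kept probes higher and 5.25% lower. With median centring 62 probes and 50 genes were lower, beside 63.6% of all kept probes. With offset 16 there were 1 higher and 5 lower probes and 1 higher and 4 lower genes, beside 4.55% of all kept probes higher and 6.26% lower. At a limma adjusted p under 0.01 the counts were 0. At an unadjusted p under 0.05 there were 31 of 79 Rab probes, beside 10238 of all 27631 kept probes. At an adjusted p under 0.1 there were 16 lower probes and 14 lower genes, beside 17.7% of all kept probes lower. Leaving out each replicate gave 0 to 4 higher and 0 to 8 lower probes, and 0 to 3 higher and 0 to 7 lower genes. Of all kept probes 0.224% to 6.19% were higher and 0.0688% to 8.63% lower in those fits. Transcripts lower at the distal probe numbered 3; they were 0 with processed signals, 9 with median centring (2 higher), 1 with offset 16 and 0 to 3 without each replicate. With no replicate block (channels as separate samples) 5 probes were higher and 11 lower, and the share of all kept probes in that fit was not counted.

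Rab27b turned to 0.030 with processed signals, and without each replicate it ran from -0.059 to 0.017 (without replicate 1). With median centring, where the median of all genes lay at -0.45, signs turned for Rab10 (-0.61), Rab20 (0.33), Rab31 (-0.36), the Rab3c probes (-0.67 and -0.63), Rab40c (-0.47), Rab5a (-0.52), the Rab5b probes at bases 1821 (0.12) and 1019 (-0.086), Rab7 (-0.53), Rab8a (-0.33), Rabgap1 (-0.012), Rabggtb (-0.36), Rabac1 (-0.60), Chm (-0.48), Mical3 (-0.31), Sytl4 (0.016), Dennd1c (0.11) and Dennd2d (0.34). The cause was not tested. Depth limits Rab19 and Rab20, whose Cy3 signal was not well above background. Rab17 and the Rab8b probe at base 3306 were well above it in Cy3 on only 1 array. Rab39 was well above it with both dyes but dim, at a mean log2 intensity of 6.93, beside 6.55 for Rab19 and 6.36 for Rab20.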
